A study of Rattus norvegicus with 13 samples.

Results

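The genes described here are the Adam, Adamts, Timp and Serpin genes of the rat: secreted and membrane-bound proteases, and the inhibitors that act on these and other proteases. They were taken by symbol, as every gene whose array annotation starts with Adam and a digit, Adamts, Timp and a digit, or Serpin. This family was chosen with earlier results of these data known. The rule gave 72 of the 14506 genes measured, from 73 probe sets that carry exactly 1 symbol. There were 18 Adam, 11 Adamts, 3 Adamts-like, 4 Timp and 36 Serpin genes. Their expression was compared between skin-derived precursors (SKPs), dermal precursor cells grown in culture from skin, and mesenchymal stromal cells (MSCs), adherent stromal cells also grown in culture.

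RNA of 13 cultures was hybridised to Affymetrix Rat Gene 1.0 ST arrays, with 3 isolates of dorsal SKPs, 3 of facial SKPs, 3 of ventral SKPs and 4 of MSCs. The dorsal and ventral SKPs came from the trunk, and all isolates were independent per the design text. All 4 groups were cells of adult Sprague Dawley rats that had been passaged 2 times, and no group was treated or genetically altered per the labels. The labels name neither the tissue of the MSCs nor the culture media, so cell type and culture conditions cannot be told apart in a comparison of SKPs with MSCs.

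Adam proteins are membrane-anchored, and their active members cut other proteins off the cell surface, a step called shedding. Adamts proteins are secreted relatives that cut matrix proteoglycans such as aggrecan and versican or trim procollagens, while Adamts-like proteins lack the protease domain. Timps inhibit matrix metalloproteinases, and Timp3, which is held in the matrix, also inhibits Adam17 and the aggrecanases Adamts4 and Adamts5. Serpins trap serine proteases of the plasmin, clotting and complement systems in an irreversible complex, and some members, such as Serpinh1 and Serpinf1, have other functions.

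Promoter sequences from RefSeq (build GRCr8), each running from 250 bases before to 50 bases after the gene's start, were matched to 51 of the 72 genes. Shown are the promoters of 5 genes on which the results below turn: the inhibitor genes Timp3 (chr7:19459509-19459808, minus strand), Serpina3n (chr6:129088142-129088441, plus strand) and Serpine2 (chr9:88637153-88637452, minus strand), and Adamtsl3 (chr1:145697754-145698053, plus strand) and Adamts4 (chr13:86202761-86203060, plus strand). Each is written 5′ to 3′ on the strand of the gene. Capitals mark matches, on either strand, to the GC box GGGCGG and to the STAT motif TTCNNNGAA.
Timp3: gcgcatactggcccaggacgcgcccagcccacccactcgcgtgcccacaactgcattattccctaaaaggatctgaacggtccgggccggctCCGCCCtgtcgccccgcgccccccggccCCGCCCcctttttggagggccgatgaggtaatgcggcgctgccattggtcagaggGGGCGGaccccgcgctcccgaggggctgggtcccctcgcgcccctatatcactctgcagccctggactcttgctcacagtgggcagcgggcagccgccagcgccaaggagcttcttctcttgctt
Serpina3n: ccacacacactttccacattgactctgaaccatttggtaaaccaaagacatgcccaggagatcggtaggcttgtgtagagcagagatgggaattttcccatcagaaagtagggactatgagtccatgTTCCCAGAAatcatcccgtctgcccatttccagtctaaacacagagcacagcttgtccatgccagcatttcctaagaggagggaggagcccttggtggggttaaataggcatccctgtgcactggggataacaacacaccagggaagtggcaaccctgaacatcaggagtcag
Serpine2: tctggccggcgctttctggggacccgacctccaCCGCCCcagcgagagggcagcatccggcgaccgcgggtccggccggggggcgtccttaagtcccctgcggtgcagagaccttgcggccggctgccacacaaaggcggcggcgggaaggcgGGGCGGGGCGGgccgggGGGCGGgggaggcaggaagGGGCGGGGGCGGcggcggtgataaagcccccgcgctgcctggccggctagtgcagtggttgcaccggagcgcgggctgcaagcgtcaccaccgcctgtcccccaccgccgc
Adamtsl3: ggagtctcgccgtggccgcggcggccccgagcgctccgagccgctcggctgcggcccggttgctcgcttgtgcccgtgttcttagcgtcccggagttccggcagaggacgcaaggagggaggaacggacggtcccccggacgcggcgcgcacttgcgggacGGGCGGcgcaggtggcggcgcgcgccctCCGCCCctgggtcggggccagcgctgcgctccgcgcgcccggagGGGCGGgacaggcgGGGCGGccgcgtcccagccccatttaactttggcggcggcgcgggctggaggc
Adamts4: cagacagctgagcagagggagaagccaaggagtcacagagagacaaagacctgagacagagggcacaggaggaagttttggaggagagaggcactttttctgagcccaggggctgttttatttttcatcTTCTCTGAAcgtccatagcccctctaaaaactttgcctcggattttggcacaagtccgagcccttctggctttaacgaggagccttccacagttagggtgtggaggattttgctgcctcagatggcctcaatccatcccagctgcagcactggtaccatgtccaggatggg

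The Serpine2 promoter held 6 GC boxes, some of which share bases, that of Adamtsl3 held 4 and that of Timp3 held 3. Those of Serpina3n and Adamts4 held none, and each held 1 STAT motif, whose first base is at −123 from the start of Serpina3n and at −121 from that of Adamts4. No match to one motif overlapped a match to the other. Of the 28 promoters of members above background (defined below), 16 held a GC box, against 34.9% of 27457 rat promoters of the same length. The 27457 promoters were not limited to genes above background, so this share and those that follow are not of like sets. A STAT motif was found in 4 of the 28, against 8.68% of all promoters, and the TATA box TATAAA in 4, against 14.3%. The AP-1 motif TGANTCA was found in 0 of the 28, against 7.33% of all promoters, which says only that these letters are not in these windows. These matches describe the sequences, and the array data do not test them.

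Levels are RMA values on a log2 scale, so a difference of 1 is a 2-fold change, and levels of different genes are not compared because probes differ in brightness. A gene was taken as above background in a group when its mean there was over the 95th percentile of 1105 olfactory receptor genes, which lay at 3.94 in ventral SKPs, 4.03 in the other SKPs and 4.04 in MSCs. By this measure 35 members were above background in at least 1 group and 31 in all 4. These were 8 of 18 Adam, 10 of 11 Adamts, 3 of 3 Adamts-like, 3 of 4 Timp and 11 of 36 Serpin genes. The other 37 had group means between 1.65 and 3.98. Among them were Serpina1 (the elastase inhibitor of plasma), Serpinc1 (antithrombin), Serpinb5, Serpinb12 and Serpinb13, which are known from epithelia, and Adam2 and Adam3a of sperm.

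Differences were tested with limma over all 13 arrays, 2-sided, and p-values were adjusted by Benjamini-Hochberg over all 14506 genes, with calls made under 0.05. In SKPs, taken as the mean of the 3 regions, against MSCs, 20 of the 72 members were called, where 25.3% of all genes were called. Of these, 10 were higher, where 13.1% of all genes were, and 10 were lower, where 12.2% of all genes were. The median difference of the members was −0.03, beside −0.02 over all genes. A called difference of at least 1 was found for 14 members, where 8.7% of all genes had one. Of the 35 members above background, 17 were called, 10 higher and 7 lower. Of the 11013 genes above background in at least 1 group, 32.3% were called, 17.1% higher and 15.3% lower. The arrays of SKPs and MSCs did not overlap for 12 members, where 12.6% of all genes did not overlap.

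Of the Timp and Serpin genes above background, Timp3, Serpina3n, Serpini1, Serpine2, Serping1, Serpinf1 and Timp2 were higher in SKPs and Serpinb9 was lower. Of the Adam and Adamts families, Adamts4, Adamts7 and Adam17 were higher, and Adam23, Adamts5, Adamts1, Adamts14 and the protease-lacking Adamtsl3 and Adamtsl4 were lower.

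Timp3 (probe set 10901231) had levels of 7.68, 8.07 and 6.43 (dorsal SKPs), 10.06, 10.04 and 9.71 (facial SKPs), 10.39, 9.61 and 10.77 (ventral SKPs) and 4.06, 4.47, 5.41 and 4.79 (MSCs). All 9 SKP arrays were above all 4 MSC arrays, and the dorsal arrays were below those of the other regions. The level in SKPs exceeded that in MSCs by 4.51 (SE 0.32, limma adjusted p = 1.53e-06), a 22.9-fold difference. Against MSCs dorsal SKPs were higher by 2.71 (SE 0.41, limma adjusted p = 0.000897), facial SKPs by 5.26 (SE 0.41, limma adjusted p = 6.28e-06) and ventral SKPs by 5.57 (SE 0.41, limma adjusted p = 3.2e-06).

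The regions themselves differed in Timp3. Dorsal SKPs were below ventral SKPs by 2.86 (SE 0.43, limma adjusted p = 0.00368), and facial SKPs were above dorsal SKPs by 2.54 (SE 0.43, limma adjusted p = 0.0145). Dorsal array 3 was the lowest SKP array for this gene. Without it the facial-dorsal difference was 2.06 (limma adjusted p = 0.0306) and the dorsal-ventral difference was −2.38 (limma adjusted p = 0.00658). With the mean leukocyte marker level as a covariate the adjusted p of the facial-dorsal difference was 0.199, over a range of 0.0127 to 0.199 in all alternatives. The facial-dorsal call was also lost with the replicate number as a block and in a fit on only these regions. Leaving out dorsal array 3 and facial array 3 together lost it too. Facial and ventral SKPs were not called apart, with a difference of −0.32 and a 95% interval of −1.27 to 0.63.

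Timp1, a secreted inhibitor of most matrix metalloproteinases, had levels of 11.18, 11.39 and 9.30 for dorsal, 11.04, 11.45 and 10.99 for facial and 12.30, 12.46 and 12.44 for ventral SKPs, and 11.34, 10.88, 10.49 and 10.97 for MSCs. The ventral arrays were above all others, and dorsal array 3 was below all others. Ventral SKPs exceeded MSCs by 1.48 (SE 0.40, limma adjusted p = 0.0185) and exceeded dorsal SKPs, with a dorsal-ventral difference of −1.78 (SE 0.43, limma adjusted p = 0.0322). Without dorsal array 3 that difference was −1.12 with an adjusted p of 0.0159, and leaving out ventral array 1, 2 or 3 gave adjusted p of 0.0926, 0.0925 and 0.106, within a range of 0.0123 to 0.132. The call of ventral SKPs against MSCs was lost without ventral array 2 or 3, over a range of 0.000143 to 0.102.

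Over the 3 regions Timp1 was not called against MSCs, with a difference of 0.48, a 95% interval of −0.22 to 1.17 and a limma adjusted p of 0.321. Without dorsal array 3 it was called, with a difference of 0.70 and a limma adjusted p of 0.00449. Timp2, which also takes part in the activation of pro-Mmp2 at the cell surface, had SKP levels between 11.29 and 12.43 and MSC levels of 11.37, 11.33, 11.67 and 11.44. It was higher in SKPs by 0.55 (SE 0.14, limma adjusted p = 0.0133), and dorsal array 3, at 11.29, was below all 4 MSC arrays. Its adjusted p ranged up to 0.142 over the alternatives, the highest with MSC arrays 3 and 4 as the only MSCs. The Timp2 call was also lost with the leukocyte covariate and with the replicate number as a block. Timp4 was below background in every group.

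**Figure D1:**
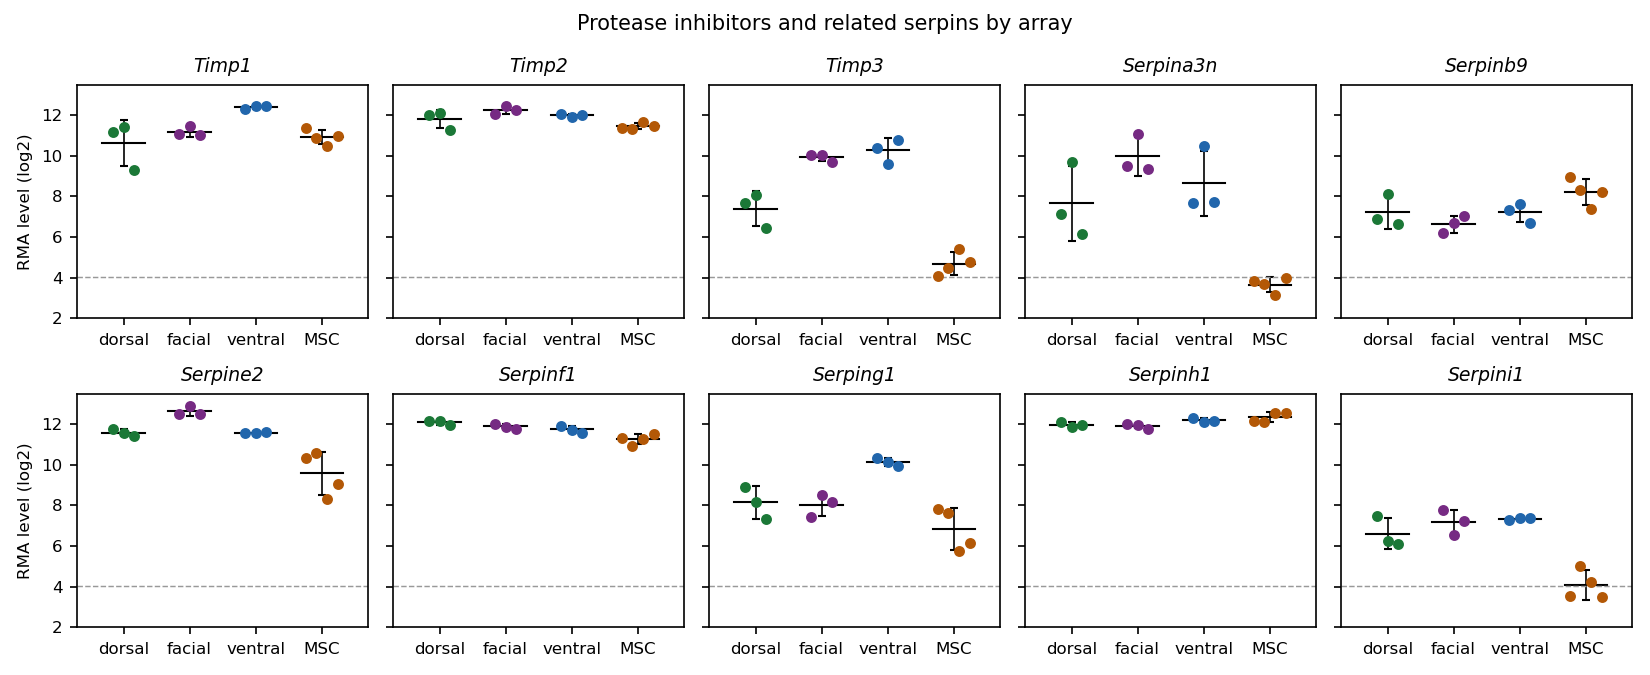
RMA levels (log2, vertical axis) of Timp genes and Serpin genes on each of the 13 arrays, by group (horizontal axis), where points are arrays, the horizontal line is the group mean, the bar is the SD and the dashed line marks the background level. Timp3 lies between 6.43 and 10.77 on the SKP arrays and between 4.06 and 5.41 on the MSC arrays, and Serping1 and Timp1 are highest in ventral SKPs.

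Serpina3n, a secreted inhibitor related to human antichymotrypsin, had levels of 7.13, 9.71 and 6.13 on the dorsal arrays, 9.49, 11.06 and 9.36 on the facial arrays, 7.69, 10.49 and 7.73 on the ventral arrays and 3.83, 3.68, 3.14 and 4.00 on the MSC arrays. Every SKP array was above background and all 4 MSC arrays were below it. The spread within SKPs was wide, with a dorsal SD of 1.85, a facial SD of 0.95 and a ventral SD of 1.60, and array 2 was the highest in each region. The difference was 5.09 (SE 0.66, limma adjusted p = 0.000168), and since the MSC level was below background it is best read as at least 26.2-fold higher in SKPs, the SKP mean over the MSC background level. No pair of regions was called apart, and the facial-dorsal difference was 2.31 with a 95% interval of 0.34 to 4.29 and a limma adjusted p of 0.272. Serpina3n has near-identical neighbours in the genome, and the array does not show how far probes are shared. Serpina3c, Serpina3l and Serpina3m were below background in every group.

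The serpins of the plasminogen and clotting systems came next in size. Serpine2, or protease nexin-1, inhibits thrombin and the plasminogen activators, and had levels of 11.75, 11.56 and 11.42 (dorsal SKPs), 12.50, 12.90 and 12.51 (facial SKPs), 11.55, 11.55 and 11.58 (ventral SKPs) and 10.34, 10.57, 8.32 and 9.05 (MSCs). All SKP arrays were above all MSC arrays, and the facial arrays were above the other 6 SKP arrays. SKPs exceeded MSCs by 2.36 (SE 0.34, limma adjusted p = 0.000319). Over the alternatives this difference lay between 1.47 and 3.24 and was always called. The facial-dorsal difference of 1.06 (95% interval 0.06 to 2.06) had an adjusted p of 0.316, and the facial-ventral difference of 1.08 (0.08 to 2.08) had an adjusted p of 0.192. Neither was called, although the arrays did not overlap. In a fit on only these regions the facial-ventral difference of Serpine2 was called (limma adjusted p = 0.00577).

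Serpini1, or neuroserpin, an inhibitor of tissue plasminogen activator known from neurons, had levels of 7.48, 6.23 and 6.10 for dorsal, 7.75, 6.53 and 7.24 for facial and 7.28, 7.38 and 7.36 for ventral SKPs, and 3.54, 5.04, 4.25 and 3.51 for MSCs. The MSC arrays lay around the background level and the SKP arrays were above all of them. The difference was 2.95 (SE 0.33, limma adjusted p = 5.91e-05), and it was 2.52, 3.09 and 3.26 in dorsal, facial and ventral SKPs, each of which was called. The facial call of Serpini1 was lost with the leukocyte covariate (limma adjusted p = 0.0843). Serpinf2, the plasmin inhibitor antiplasmin, was close to background, with SKP levels of 4.34 to 5.28 and MSC levels of 4.21 to 4.56. It was called in dorsal SKPs against MSCs at 0.62 (SE 0.14, limma adjusted p = 0.00945) and not over the 3 regions (0.27, limma adjusted p = 0.0956).

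Serping1, the C1 inhibitor that blocks the first complement proteases, had levels of 8.92, 8.17 and 7.33 on the dorsal arrays, 7.43, 8.52 and 8.17 on the facial arrays, 10.35, 10.13 and 9.96 on the ventral arrays and 7.81, 7.65, 5.78 and 6.16 on the MSC arrays. The ventral arrays were above all others, while dorsal and facial arrays overlapped with MSC arrays 1 and 2. SKPs exceeded MSCs by 1.93 (SE 0.40, limma adjusted p = 0.00392). By region the call was made in ventral SKPs, at 3.30 (SE 0.51, limma adjusted p = 0.00067), and not in dorsal (1.29) or facial SKPs (1.19). With MSC arrays 1 and 2 as the only MSCs the difference over the regions was 1.05 with an adjusted p of 0.0712, and with arrays 3 and 4 alone it was 2.81 with an adjusted p of 0.000447. The call of Serping1 over the regions was also lost with the leukocyte covariate (limma adjusted p = 0.0763).

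Facial SKPs were below ventral SKPs in Serping1, with a difference of −2.11 (SE 0.55, limma adjusted p = 0.0406). This call was lost on leaving out dorsal array 2, facial array 1, 2 or 3, or ventral array 1, 2 or 3, with adjusted p of 0.0547, 0.128, 0.0559, 0.0916, 0.137, 0.109 and 0.0961 in that order, within a range of 0.00393 to 0.137. Dorsal SKPs were 4.01-fold below ventral SKPs (95% interval of the log2 difference −3.20 to −0.81) but were not called, with a limma adjusted p of 0.0522. This dorsal-ventral difference of Serping1 was called without dorsal array 1, MSC array 1 or MSC array 3 (limma adjusted p = 0.0378, 0.0429 and 0.0341). Endothelial markers, a list of 10 of which 9 were measured, were also highest in ventral SKPs. Their mean was 5.22 to 5.70 there, with 9 of 9 above background, against 3.89 to 4.27 on the dorsal, 4.17 to 4.54 on the facial and 3.80 to 4.37 on the MSC arrays, with 4 or 5 above background. Of these markers Pecam1 had levels of 6.65, 5.43 and 6.50 on the ventral arrays and 3.02 to 4.31 on the others. Not every marker was highest there. Tie1 was highest on facial array 3, at 6.96 against 5.97 to 6.42 on the ventral arrays. Tek was highest on MSC array 3, at 5.34 against 3.99 to 4.67 on the ventral arrays. In bulk cultures, more cells of a type and more RNA per cell cannot be told apart, and the part of endothelial cells in the ventral levels of Serping1, Timp1 and Adamts4 was not tested.

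Serpinf1, or pigment epithelium-derived factor, a serpin that inhibits no protease and is known to block vessel growth, had SKP levels between 11.57 and 12.16 and MSC levels of 11.30, 10.92, 11.28 and 11.52. The lowest SKP array was just above the highest MSC array. The difference was small, at 0.65 (SE 0.11, limma adjusted p = 0.00123), and it was called in all 3 regions, the facial call of Serpinf1 being lost with the leukocyte covariate (limma adjusted p = 0.163). Serpinh1, or Hsp47, the collagen chaperone of the endoplasmic reticulum, had levels between 11.78 and 12.32 in SKPs and of 12.15, 12.08, 12.55 and 12.55 in MSCs. It was not called over the regions, with a difference of −0.31, a 95% interval of −0.54 to −0.08 and a limma adjusted p of 0.0537. The adjusted p was 0.0421 without MSC array 1 and 0.0254 without MSC array 2, and 0.00547 with MSC arrays 3 and 4 as the only MSCs. In facial SKPs Serpinh1 was called lower than in MSCs (limma adjusted p = 0.0465), and that call was lost in 15 alternatives.

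Of the 14 clade B serpins, which mostly act inside cells, 3 were above background. Serpinb9, an inhibitor of granzyme B, had levels of 6.88, 8.13 and 6.64 (dorsal SKPs), 6.19, 6.71 and 7.02 (facial SKPs), 7.35, 7.61 and 6.72 (ventral SKPs) and 8.98, 8.31, 7.40 and 8.19 (MSCs). It was lower in SKPs (−1.19, SE 0.32, limma adjusted p = 0.0174), with overlap between the groups, and without MSC array 1 the adjusted p was 0.0657, within a range of 0.00496 to 0.214. The Serpinb9 call was also lost with the leukocyte covariate and with MSC arrays 3 and 4 as the only MSCs. Serpinb6a, with 8.57 to 9.25 in SKPs and 8.94 to 9.58 in MSCs, was not called (−0.43, limma adjusted p = 0.0566). Serpinb6a was called without dorsal array 3, MSC array 3 or ventral array 3 (limma adjusted p = 0.0385, 0.0159 and 0.0427). Serpinb2, Serpinb7 and Serpinb9d were called lower in SKPs but were below background in every group. The Serpinb9d call was lost without MSC array 1 or 3 (range of adjusted p 0.00241 to 0.201), and that of Serpinb7 without MSC array 1, dorsal array 1, facial array 1 or 3, or any ventral array (range 0.000672 to 0.17). Serpinb9d is a near copy of Serpinb9, and the array does not show how far probes are shared. Serpinb7 reached 5.55 on MSC array 3, against 2.18 to 3.51 on the other MSC arrays.

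Serpinb1a, an inhibitor of neutrophil elastase that is abundant in myeloid cells, varied widely within groups. Its levels were 6.96, 4.53 and 4.24 for dorsal, 7.99, 6.46 and 9.37 for facial and 4.24, 4.92 and 4.59 for ventral SKPs, and 8.57, 7.19, 3.83 and 4.87 for MSCs. It was called in no comparison, and against MSCs its difference was −0.19 with a 95% interval of −2.03 to 1.65 (limma adjusted p = 0.898). The sign of this difference depended on the arrays, since Serpinb1a was higher in SKPs by 1.57 with MSC arrays 3 and 4 as the only MSCs (limma adjusted p = 0.198), and by 0.63, 0.17 and 0.056 without MSC array 1, MSC array 2 or facial array 2. A list of 21 macrophage and leukocyte markers, 20 of them measured, had means of 7.03, 5.03 and 4.18 on the dorsal arrays, 7.51, 6.19 and 9.94 on the facial arrays, 5.29, 5.32 and 5.64 on the ventral arrays, and 4.65, 4.45, 4.23 and 4.19 on the MSC arrays. Within dorsal and within facial SKPs the array with the highest leukocyte mean also had the highest Serpinb1a level. MSC arrays 1 and 2 had high Serpinb1a at low leukocyte means. Lyz2, the lysozyme gene of macrophages, lay between 3.58 and 5.41 on the MSC arrays and reached 12.59 on facial array 3. The part of leukocytes in the level of Serpinb1a was not tested.

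**Figure D2:**
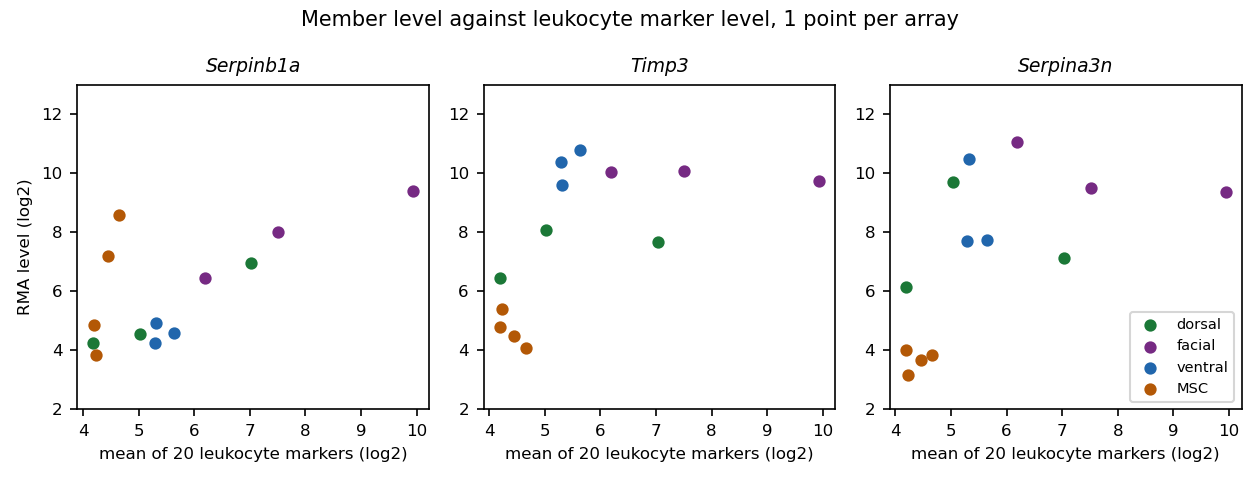
RMA level (log2, vertical axis) of Serpinb1a, Timp3 and Serpina3n against the mean level of 20 leukocyte markers (log2, horizontal axis), with 1 point for each of the 13 arrays coloured by group. Serpinb1a is highest, at 9.37, on the facial array with a leukocyte mean of 9.94, whereas the highest Timp3 level, 10.77, is on a ventral array with a leukocyte mean of 5.64.

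Among the Adam genes, Adam17 and Adam23 were called in SKPs against MSCs, in opposite directions. Adam17, or TACE, the sheddase of tumour necrosis factor and of ligands of the epidermal growth factor receptor, had levels of 10.22, 10.25 and 9.71 on the dorsal arrays, 10.19, 10.24 and 10.44 on the facial arrays, 10.45, 10.40 and 10.70 on the ventral arrays and 9.37, 9.51, 8.48 and 8.56 on the MSC arrays. The SKP arrays lay close together and above all MSC arrays. The difference was 1.31 (SE 0.20, limma adjusted p = 0.000441), a 2.48-fold difference. Facial SKPs did not differ from dorsal or ventral SKPs by a called amount, and the 3 regional differences from MSCs were 1.08, 1.31 and 1.54, each called. The facial call of Adam17 was lost with the mean leukocyte marker level as a covariate (limma adjusted p = 0.266), and its dorsal call in a fit on only these groups (0.0732).

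Adam23, a member without protease activity that acts in cell adhesion and is known from neurons, had levels of 4.12, 4.02 and 4.08 (dorsal SKPs), 4.93, 4.59 and 4.47 (facial SKPs), 5.03, 4.14 and 4.55 (ventral SKPs) and 6.57, 6.63, 6.92 and 7.12 (MSCs). The MSC arrays were well apart from the SKP arrays, whose dorsal values were near background. The difference was −2.37 (SE 0.16, limma adjusted p = 9.7e-07). Adam9, with 8.27 to 9.47 in SKPs and 8.70 to 9.26 in MSCs, was not called (0.16, 95% interval −0.17 to 0.48, limma adjusted p = 0.514). Adam15, a membrane-anchored member with an integrin-binding motif, was also not called against MSCs (0.25, limma adjusted p = 0.311).

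Adam15 was called between dorsal SKPs, with 7.68, 7.67 and 8.24, and ventral SKPs, with 6.91, 7.32 and 6.86. The dorsal arrays were above the ventral arrays and the difference was 0.83 (SE 0.22, limma adjusted p = 0.0451). The adjusted p rose above the threshold without any 1 of dorsal array 1, 2 or 3 (0.053, 0.0556, 0.112), facial array 2 (0.058), ventral array 1, 2 or 3 (0.152, 0.0514, 0.163) or MSC array 1, 2, 3 or 4 (0.0567, 0.0607, 0.0533, 0.057), within a range of 0.0234 to 0.163. Adam11, Adam1a and Adam4l1 were above background in all 4 groups, between 4.34 and 5.81 on all arrays, and were called in no comparison. Adam4 was above background in facial SKPs only, at a mean just over it.

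The Adamts genes were called in both directions. Adamts4, an aggrecanase, had levels of 6.78, 7.55 and 7.20 for dorsal, 7.75, 7.46 and 7.05 for facial and 9.08, 9.05 and 8.97 for ventral SKPs, and 5.46, 5.58, 6.73 and 6.20 for MSCs. All SKP arrays were above all MSC arrays, and the ventral arrays stood above the other SKP arrays. The difference from MSCs was 1.89 (SE 0.23, limma adjusted p = 9.76e-05). Ventral SKPs exceeded dorsal SKPs, with a dorsal-ventral difference of −1.86 (SE 0.31, limma adjusted p = 0.00633), and facial SKPs, with a facial-ventral difference of −1.62 (SE 0.31, limma adjusted p = 0.0109). With the leukocyte covariate the adjusted p of the facial-ventral difference of Adamts4 was 0.151. Facial and dorsal SKPs were not called apart (0.24, 95% interval −0.43 to 0.92). Against MSCs the difference in dorsal SKPs, 1.18, was lost as a call without dorsal array 2, over a range of adjusted p of 0.00148 to 0.0983.

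Adamts5, the other main aggrecanase, went the other way. Its levels were 7.09, 7.12 and 7.91 on the dorsal arrays, 5.39, 5.86 and 5.46 on the facial arrays, 6.45, 6.25 and 5.54 on the ventral arrays and 8.57, 8.43, 8.78 and 8.54 on the MSC arrays. The MSC arrays were above all SKP arrays, and the dorsal arrays were above those of the other regions. The difference from MSCs was −2.24 (SE 0.19, limma adjusted p = 6.74e-06), and by region it was −1.20, −3.01 and −2.50 in dorsal, facial and ventral SKPs, each called. The facial-dorsal difference was −1.80 (SE 0.26, limma adjusted p = 0.00529) and the dorsal-ventral difference was 1.30 (SE 0.26, limma adjusted p = 0.0138). With the leukocyte covariate the facial-dorsal difference of Adamts5 had an adjusted p of 0.135. Without ventral array 3 the dorsal-ventral difference had an adjusted p of 0.0557, within a range of 0.00966 to 0.0893.

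Adamts1, which cuts versican and aggrecan, had levels of 9.30, 9.34 and 8.13 (dorsal SKPs), 9.64, 11.23 and 10.33 (facial SKPs), 9.14, 9.06 and 8.50 (ventral SKPs) and 11.09, 10.37, 10.36 and 10.20 (MSCs). Facial SKPs overlapped with MSCs, while dorsal and ventral SKPs were below them. Over the regions the difference was −1.10 (SE 0.31, limma adjusted p = 0.0202), and without MSC array 1 it was −0.90 with an adjusted p of 0.0742, within a range of 0.00668 to 0.169. The call over the regions was also lost with the leukocyte covariate and with MSC arrays 1 and 2, or 3 and 4, as the only MSCs. Dorsal SKPs (−1.58, limma adjusted p = 0.0156) and ventral SKPs (−1.60, limma adjusted p = 0.0103) were called below MSCs. These calls were lost without dorsal array 3 and without ventral array 3, respectively, over ranges of adjusted p of 0.00871 to 0.0826 and of 0.00246 to 0.0638. Facial SKPs were above dorsal SKPs by 1.48 and above ventral SKPs by 1.50, with limma adjusted p of 0.138 and 0.0542, so neither was called. The facial-ventral difference of Adamts1 was called without dorsal array 3 or facial array 1 (limma adjusted p = 0.0253 and 0.0318).

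Adamts7 and Adamts12, a closely related pair known to cut cartilage oligomeric matrix protein, were called differently. Adamts7 had SKP levels between 7.40 and 9.17 and MSC levels of 6.54, 6.00, 7.13 and 7.87, and was higher in SKPs by 1.65 (SE 0.34, limma adjusted p = 0.00381), with MSC array 4 above dorsal array 3. With MSC arrays 3 and 4 as the only MSCs the difference was 1.03 with an adjusted p of 0.0746. Adamts12 had levels of 8.32, 7.69 and 6.17 for dorsal, 8.19 to 9.29 for facial and 8.33 to 8.79 for ventral SKPs, and 6.92, 7.42, 10.19 and 10.19 for MSCs. It was not called (−0.48, 95% interval −1.85 to 0.88, limma adjusted p = 0.636), and its MSC arrays 1 and 2 were far below arrays 3 and 4. With MSC arrays 1 and 2 as the only MSCs Adamts12 was higher in SKPs by 1.03 (limma adjusted p = 0.173), and with MSC arrays 3 and 4 alone it was lower, with a difference of −1.99 (limma adjusted p = 0.0123).

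A split of the MSC arrays of this kind was seen in other members too. Adamts9, which cuts versican, had 5.21, 5.53, 8.76 and 8.03 in MSCs against 4.21 to 5.91 in SKPs, and its difference of −1.63 (SE 0.56) was not called (limma adjusted p = 0.0544). Without MSC array 1 or 2 Adamts9 was called (limma adjusted p = 0.0117 and 0.0249), and its difference lay between −3.14 with MSC arrays 3 and 4 alone and −0.11 with MSC arrays 1 and 2 alone. Adamts14, a procollagen N-propeptidase, had 5.25, 5.12, 6.88 and 6.18 in MSCs against 4.68 to 5.40 in SKPs. It was called, with a difference of −0.88 (SE 0.28, limma adjusted p = 0.0355). Without MSC array 3 or 4 the difference was −0.54 or −0.77, with adjusted p of 0.0984 and 0.113. Leaving out dorsal array 1 or 3, facial array 3, or ventral array 2 or 3 gave adjusted p of 0.0566, 0.0504, 0.0598, 0.0632 and 0.0586, within a range of 0.000454 to 0.448. The contractile markers, a list of 8 all measured, had means of 8.64, 8.78, 9.99 and 10.25 on MSC arrays 1 to 4 and of 5.05 to 5.41 in SKPs. The part of contractile state in these members was not tested.

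The remaining procollagen N-propeptidases were not called over the regions. Adamts2 had 7.89 to 9.16 in SKPs and 7.16, 7.13, 8.12 and 8.42 in MSCs (0.72, SE 0.26, limma adjusted p = 0.0616), and it was called without MSC array 4 (0.96, limma adjusted p = 0.0197). Adamts3 was near background, with 3.60 to 4.72 in SKPs and 3.61 to 4.00 in MSCs (0.40, limma adjusted p = 0.069), and it was called without dorsal array 1 or ventral array 2 (limma adjusted p = 0.0454 and 0.0184). In ventral SKPs Adamts3 was called higher than in MSCs (limma adjusted p = 0.0276), and that call was lost in 7 alternatives. Adamts15, another aggrecanase, had 4.81 to 8.22 in SKPs and 5.55 to 6.54 in MSCs (0.62, SE 0.39, limma adjusted p = 0.285).

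Of the Adamts-like genes, Adamtsl3 had levels of 5.29, 4.54 and 4.48 on the dorsal arrays, 5.36, 5.20 and 5.29 on the facial arrays, 4.87, 4.74 and 4.56 on the ventral arrays and 8.74, 8.06, 8.77 and 6.47 on the MSC arrays. The MSC arrays were above all SKP arrays, although MSC array 4 was lower than the other 3. The difference was −3.09 (SE 0.35, limma adjusted p = 6.55e-05), an 8.50-fold difference, and it was called in each region. Adamtsl4, which binds fibrillin microfibrils, had 7.75, 7.75 and 6.24 (dorsal SKPs), 7.71, 7.93 and 7.67 (facial SKPs), 6.78, 6.81 and 6.68 (ventral SKPs) and 8.26, 8.01, 8.38 and 8.33 (MSCs). It was lower in SKPs (−0.99, SE 0.23, limma adjusted p = 0.0082). This call was lost with MSC arrays 1 and 2 as the only MSCs (limma adjusted p = 0.0954). By region Adamtsl4 was called lower in ventral SKPs (limma adjusted p = 0.00331) and dorsal SKPs (limma adjusted p = 0.0384), and not in facial SKPs. The ventral call was lost in 0 alternatives and the dorsal call in 14. Adamtsl5 lay between 6.69 and 7.31 on all arrays and was not called (0.04, 95% interval −0.18 to 0.27).

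**Figure D3:**
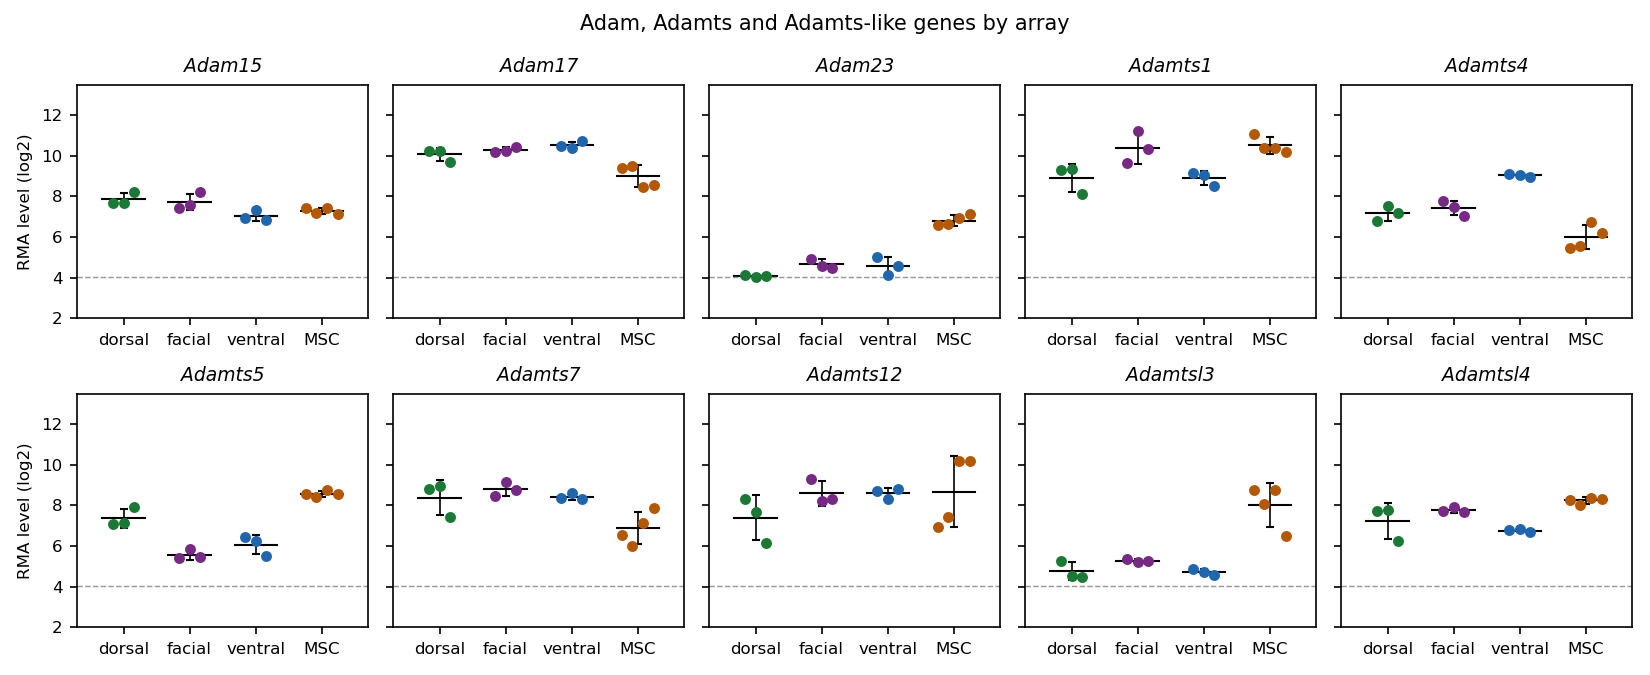
RMA levels (log2, vertical axis) of Adam, Adamts and Adamts-like genes on each of the 13 arrays, by group (horizontal axis), where points are arrays, the horizontal line is the group mean, the bar is the SD and the dashed line marks the background level. Adamts4 is highest in ventral SKPs and lowest in MSCs, Adamts5 is highest in MSCs, and Adamts12 is split between MSC arrays at 6.92 and 7.42 and at 10.19.

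By region, 16 members were called in dorsal SKPs against MSCs, where 16.5% of all genes were called. Of these 9 were higher, beside 8.77% of all genes, and 7 lower, beside 7.76%. In facial SKPs 16 were called, where 19% of all genes were called, 10 of them higher (9.47% of all genes) and 6 lower (9.58%). In ventral SKPs 18 were called, where 24.4% of all genes were called, 11 of them higher (13% of all genes) and 7 lower (11.4%). These comparisons share the 4 MSC arrays. The 12 members called in the same direction in all 3 regions comprise 8 higher and 4 lower in SKPs. The 8 are Timp3, Serpina3n, Serpini1, Serpine2, Serpinf1, Adamts4, Adamts7 and Adam17. Those lower are Adam23, Adamts5, Adamtsl3 and Serpinb2, the last of these below background in every group. Serpine2 was 2.01, 3.07 and 1.99 above MSCs in dorsal, facial and ventral SKPs, with the dorsal call lost in a fit on only these groups (limma adjusted p = 0.0606), and Adam23 was lower, with differences of −2.74, −2.15 and −2.24.

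Several regional calls against MSCs were close to the threshold and were lost without any 1 of several arrays. Some of these arrays were of a region not compared, which enters the comparison only through the shared estimate of the spread. Adamts7 in dorsal SKPs (1.49, limma adjusted p = 0.0353) was lost without dorsal array 1 or 2, MSC array 1 or 2, or ventral array 1, 2 or 3, over a range of 0.00557 to 0.218. In ventral SKPs (1.54, limma adjusted p = 0.0223) it was lost without MSC array 1 or 2 or ventral array 1, 2 or 3, over a range of 0.00166 to 0.162. Serpinf1 in ventral SKPs (0.48, limma adjusted p = 0.0288) was lost without MSC array 2 or ventral array 1 or 2, over a range of 0.0081 to 0.136.

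**Figure D4:**
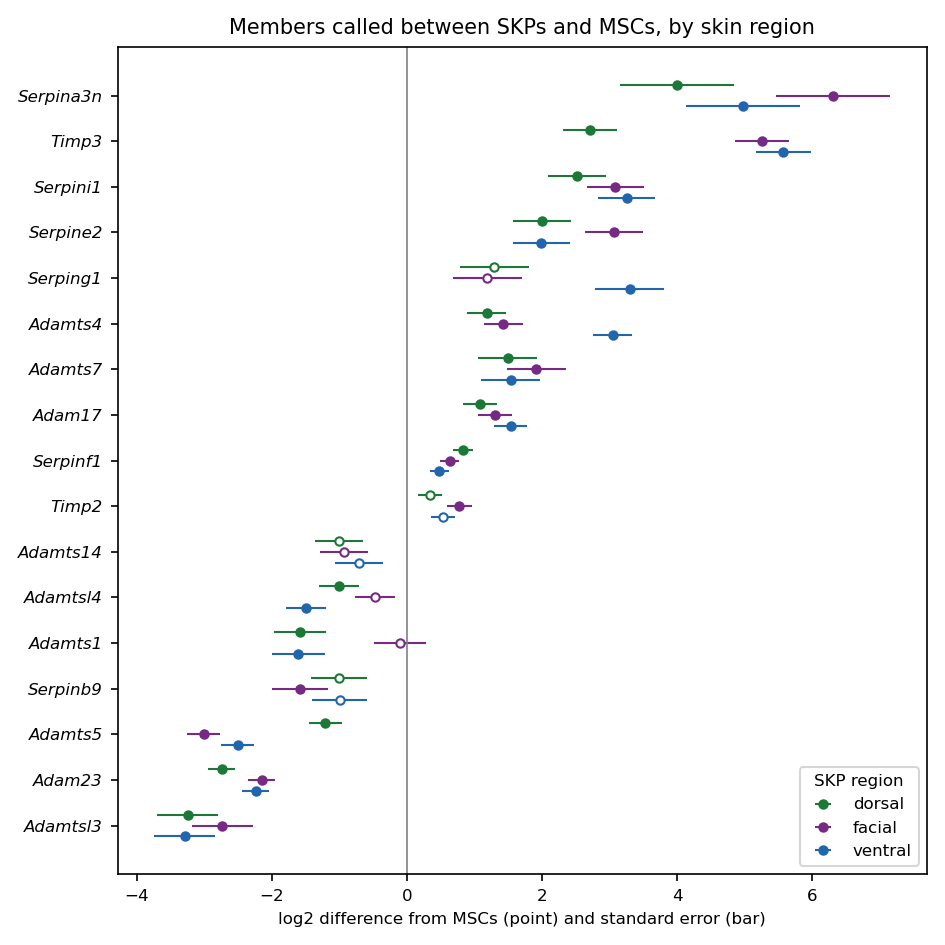
Log2 difference from MSCs (horizontal axis, point with standard error bar) in dorsal, facial and ventral SKPs for the 17 members (vertical axis) that were above background and called in SKPs against MSCs, where filled points are called by limma at an adjusted p under 0.05 and open points are not. The dorsal point of Timp3, at 2.71, lies apart from the facial and ventral points at 5.26 and 5.57, and the ventral points of Serping1 and Adamts4, at 3.30 and 3.04, lie above the others.

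Between regions few members were called. In facial against dorsal SKPs there were 2, Timp3 and Adamts5, where 1.25% of all genes were called. In facial against ventral SKPs there were 3, where 6.6% of all genes were called: Adamts4, Serping1 and Serpinb8, the last of these below background. The Serpinb8 call was lost without facial array 1 or 3, MSC array 2 or 4, or any ventral array, over a range of adjusted p of 0.0119 to 0.42. In dorsal against ventral SKPs there were 5, where 6.11% were called: Timp3, Timp1, Adamts4, Adamts5 and Adam15. In all, 7 members were called in at least 1 regional comparison, beside 10.1% of all genes. The regional comparisons share arrays in pairs, so a group that stands apart appears in each of its comparisons.

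Dorsal array 3 stood apart for many members. For 8 of the 35 members above background (Adamts1, Adamts7, Adamts12, Adamts15, Adamtsl4, Serpina3n, Timp1 and Timp3) it was at least 1 below both other dorsal arrays, and for none was it at least 1 above. Of 11013 genes above background, 4.79% were that far below on this array and 2.83% that far above. The list of 8 SKP markers had a mean of 7.58 on it, against 9.11 and 9.18 on the other dorsal arrays and 7.87 to 8.23 on the MSC arrays. The mean of melanocyte markers, 5 of 7 measured, was 6.10 on it, against 5.59 and 5.97 on the other dorsal arrays. Of these markers Mlana was higher on it, at 9.71 against 6.38 and 6.67, and Mitf was lower, at 7.73 against 8.86 and 8.53. Kit, at 7.10, lay between the other dorsal arrays, at 6.87 and 8.52. Tyr and Tyrp1 were below background on all dorsal arrays. The mean of stromal cell markers was lower on dorsal array 3 than on any other array. The part of this array's cell makeup in the dorsal levels was not tested. Keratinocyte markers, 6 of 10 measured, had means of 3.50 to 3.78 on all arrays.

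Genes that work with these proteases were taken from lists chosen with earlier results of these data in view, so their counts are descriptions. Each count is to be read beside the 13.1% of all genes called higher and the 12.2% called lower in SKPs, and each median beside −0.02 over all genes. Of 25 genes of plasminogen activation and clotting, 5 were called higher in SKPs than in MSCs and 5 lower, with a median difference of −0.03. The complement protease gene C1s was higher by 3.73 (SE 0.64, limma adjusted p = 0.00115), while the thrombin receptor F2r and thrombomodulin, Thbd, were lower (−1.76 and −1.62, limma adjusted p = 0.00514 and 0.00443). Plat, the tissue plasminogen activator that Serpini1 and Serpine2 inhibit, was higher by 1.48 (SE 0.45, limma adjusted p = 0.0315). The Plat call was lost without facial array 2, MSC array 1, 2 or 3, or ventral array 1 or 3, over a range of adjusted p of 7.32e-06 to 0.314. Over the alternatives 1 to 5 genes of this list were called higher and 3 to 5 lower, and the leukocyte covariate gave 1 and 3. Among the calls, those of the receptor genes Plaur, Plgrkt and Procr and of the complement gene C1r had adjusted p of 0.0495, 0.0479, 0.045 and 0.0492, and were lost in 13, 16, 14 and 16 alternatives. The calls of F2r and Thbd were lost with MSC arrays 1 and 2 as the only MSCs (limma adjusted p = 0.106 and 0.0519). Plau, the urokinase gene, was not called (−0.31, limma adjusted p = 0.673).

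Of the targets of the Timps, 22 of 23 listed matrix metalloproteinase genes, with their membrane inhibitor Reck, were measured. Of these 11 were called higher in SKPs and 1 lower, with a median of 0.71, and 9 to 12 were called higher over the alternatives. The largest differences of the list, all higher in SKPs, were those of Mmp13 (8.44, limma adjusted p = 1.25e-07), Mmp10 (7.48, limma adjusted p = 7.81e-09) and Mmp3 (5.61, limma adjusted p = 4.2e-06). Mmp2 and Mmp14, which act together with Timp2 at the cell surface, were higher by 1.78 (SE 0.16, limma adjusted p = 9.08e-06) and 1.07 (SE 0.13, limma adjusted p = 9.67e-05). Of 15 cathepsin and cystatin genes measured, 11 were called higher and 0 lower, with a median of 0.98, among them the lysosomal proteases Ctsc (4.55, limma adjusted p = 0.000154) and Ctsh (1.52, limma adjusted p = 9.37e-06). Ctss (2.92, limma adjusted p = 0.0168), a cathepsin of antigen-presenting cells, was lost as a call with the leukocyte covariate, with the replicate number as a block, with MSC arrays 1 and 2 as the only MSCs and without MSC array 4. Its difference was as low as 0.62 and its adjusted p as high as 0.284. The leukocyte markers were also higher in SKPs, with 10 of the 20 called higher, 0 lower and a median of 1.51. The mean of the cathepsin and cystatin genes was highest, at 9.92, on facial array 3, which also had the highest leukocyte mean, and was 8.82 to 9.34 on the other SKP arrays and 7.89 to 8.17 on the MSC arrays. With the leukocyte covariate 9 of these genes were called higher and 0 lower. The part of leukocytes in the cathepsin levels was not tested further.

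Of 11 measured genes that regulate sheddases, 4 were called higher and 1 lower, with a median of 0.15. Rhbdf2, which carries Adam17 to the cell surface, was higher by 1.95 (SE 0.15, limma adjusted p = 3.14e-06). Furin, which cuts the propeptide off Adam and Adamts proteins, was higher by 0.56 (SE 0.09, limma adjusted p = 0.000625). Of the related Pcsk genes, Pcsk5 was higher by 1.92 (limma adjusted p = 0.000211) and Pcsk7 was not called (0.15, limma adjusted p = 0.387). Pcsk6 was the 1 gene called lower (−1.08, limma adjusted p = 0.0159). The Pcsk6 call was lost in 4 alternatives, among them the leukocyte covariate. Of 29 sheddase substrates, 11 were called higher and 6 lower, with a median of 0.53, and with the leukocyte covariate 10 and 4. The ligand gene Hbegf was lower (−3.72, SE 0.25, limma adjusted p = 1.11e-06), as was Jag1 (−3.11, SE 0.56, limma adjusted p = 0.00148), and the membrane-bound chemokine gene Cxcl16 was higher (2.98, SE 0.26, limma adjusted p = 7.32e-06).

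Of 19 measured Adamts substrates and their link proteins, 1 was called higher and 6 lower, with a median of −0.26. Acan, the aggrecan cut by Adamts4 and Adamts5, was lower in SKPs (−5.22, SE 0.69, limma adjusted p = 0.000191), and the link protein gene Hapln1 was higher (3.81, SE 0.33, limma adjusted p = 7.7e-06). Vcan, the versican cut by Adamts1, was not called (0.07, limma adjusted p = 0.9). Of 15 other enzymes that process or fold procollagens, 2 were called higher and 6 lower, with a median of −0.22. Among the 6 were Lox (−3.66, SE 0.51, limma adjusted p = 0.000253), which crosslinks collagen, and Plod2 (−2.37, SE 0.21, limma adjusted p = 9.59e-06), which hydroxylates its lysines. Tll1 was also lower (−3.56, SE 0.68, limma adjusted p = 0.00228). Bmp1 was 1 of the 2 called higher (0.84, SE 0.25, limma adjusted p = 0.0298), and its call was lost in 8 alternatives.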

How the data were processed

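The authors deposited log2 values, which they had computed with RMA at the gene-core level in Affymetrix Expression Console, per the labels. Limma is also named in the submitters' processing notes, without versions. RMA equalises the distribution of values across arrays, so a shift shared by most genes would be lost, and it compresses differences near background. Array medians over 14506 genes lay between 5.90 and 6.09, and correlations across genes between arrays of a group between 0.96 and 0.995. Arrays carry no read depth, and their number limits the precision.

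Of 29215 probe sets, 15310 carried 1 symbol, 323 several and 13582 none in the annotation given, and only the first were used. Where a gene had several, the one with the highest mean over 13 arrays was kept, which among the members concerned Adamts3. Another 2 probe sets matched the rule but carried several symbols and were left out. Adam10 is not analysed here.

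With limma 3.58.1 (R 4.3.3), group means were fitted to every gene on the 13 arrays together (lmFit, contrasts and eBayes), with the 3 SKP regions weighted equally in the comparison with MSCs. P-values were 2-sided and adjusted by Benjamini-Hochberg over 14506 genes for each comparison, with 0.05 as the threshold, and they measure the spread between isolates. The fit was tested on simulated data. Members with values in the text were the 10 largest called differences in each direction against MSCs and the 5 largest between regions, above background on the higher side, and a short list named for their role. Other members were named after their values were seen. The planned grouping of Adam genes by the zinc-binding motif of their proteins was not made, and they are grouped by family. Promoters were searched for 4 motifs on both strands. The members and lists were chosen with earlier results of these data known.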

Additional observations from a re-analysis of the deposited data

How the results depend on the processing

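Among called members, Serpinb8, below background in every group, changed direction: its difference between facial SKPs and MSCs turned from 0.53 to −0.051 with the leukocyte marker mean as a covariate. Among uncalled members in SKPs against MSCs, Adam9 turned to −0.0465 with that covariate. Adamts12 turned to 0.0896 with array weights, 0.0207 with the replicate block and 1.03 with MSC arrays 1 and 2 alone, and lay between −1.07 and 0.0207 on leaving out 1 array. Adamtsl5 turned to −0.0108 with the block and −0.11 with MSC arrays 1 and 2 alone, and lay between −0.0108 and 0.12. Serpinb1a turned to 1.57 with MSC arrays 3 and 4 alone and lay between −0.95 and 0.63. The leukocyte covariate gave 13 members in place of 20 in SKPs against MSCs, 7 in place of 16 in facial SKPs against MSCs, 0 in place of 2 in facial against dorsal SKPs, and 0 in place of 3 in facial against ventral SKPs. At an unadjusted p under 0.05, limma gave 9 and 8 members in these last comparisons. Fewer genes were called over the whole array as well. With this covariate 16.3% of all genes were called in SKPs against MSCs, in place of 25.3%. In facial SKPs against MSCs 5.63% of all genes were called, in place of 19%. The calls lost with the leukocyte covariate in SKPs against MSCs were those of Serping1, Timp2, Adamts1, Adamts14, Serpinb7, Serpinb9 and Serpinb9d. A fit on only the groups compared, with fewer arrays for the spread, gave 8 in dorsal SKPs against MSCs in place of 16, 0 in facial against dorsal SKPs (9 at an unadjusted p under 0.05 by limma), 7 in facial against ventral SKPs and 2 in dorsal against ventral SKPs in place of 5. In that fit 8.62% of all genes were called in dorsal SKPs against MSCs, in place of 16.5%. Without dorsal array 3 and facial array 3 there were 1 in facial against dorsal and 5 in facial against ventral SKPs, and array weights gave 14 in the latter. The cause of these shifts was not tested.

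With the replicate number as a block, facial against dorsal SKPs gave 1 member and dorsal against ventral SKPs 3, and SKPs against MSCs gave 19, without MSC array 4. The block fit called 19.1% of all genes in SKPs against MSCs. Same-numbered arrays did not deviate together: 1 of 18 pairs had a correlation over 0.1 (range −0.12 to 0.20), beside 2 of 45 pairs with other numbers, so the numbers are not taken as pairs.

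Leaving out 1 array gave 18 to 23 members in SKPs against MSCs, 13 to 17 in dorsal, 14 to 18 in facial and 13 to 20 in ventral SKPs against MSCs, and 2 in facial against dorsal SKPs each time. Of all genes, 20.4% to 27.7% were called in SKPs against MSCs when 1 array was left out. In dorsal SKPs against MSCs the share was 13.2% to 15.9%. Facial against ventral SKPs ranged from 1, without facial array 3 or any ventral array, to 7 without dorsal array 3. Dorsal against ventral SKPs ranged from 2 without ventral array 3 to 6. Adam17, Adam23, Adamts4, Adamts5, Adamtsl3, Serpina3n, Serpine2, Serpinf1, Serpini1 and Timp3 were called in SKPs against MSCs under every alternative run. A fit on only the groups compared is the same as the main one for SKPs against MSCs and was not run there. With the 25th percentile of all genes as background, 36 members were above it in dorsal, facial and ventral SKPs and 35 in MSCs, in place of 33, 35, 33 and 31.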
